A study of Mus musculus with 7 samples.

Results

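The genes described here encode the amino acid and neurotransmitter transporters of 7 solute carrier (SLC) families: SLC1, SLC6, SLC7, SLC17, SLC18, SLC36 and SLC38. They were chosen by gene symbol, with the glutamate carrier genes Slc1a2 and Slc1a3 left out. Of the 66 genes so chosen, 54 had at least 1 read, of 20196 genes with any read in a table of 26286. RNA was sequenced from cortical neurons of male C57BL/6 mouse embryos at E16.5, from 4 KAT7 mutant mice and 3 wild type mice. KAT7, a MYST-family enzyme, acetylates histones. The labels give the genotype only as KAT7 mutant, while the allele, any Cre driver and the way the neurons were isolated were not stated in the sources at hand. The design text describes the samples as separate mice.

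Amino acid transporters in neurons work at several places. Vesicular transporters load glutamate, monoamines or acetylcholine into synaptic vesicles, and plasma membrane carriers of the SLC1 and SLC6 families clear glutamate, GABA, glycine and monoamines from outside the cell. SLC7, SLC38 and SLC36 proteins supply amino acids for protein synthesis, for making glutamate and GABA and for lysosomal nutrient sensing, and the SLC7 light chains reach the membrane only in complex with a heavy chain such as SLC3A2.

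Libraries held 8272487 to 8813060 counts. Kat7 itself had 3, 4, 3 and 10 counts in KAT7 mutant replicates 1 to 4, against 869, 848 and 854 in wild type replicates 1 to 3. CPM are counts scaled to each library's total over genes that passed the count filter and to its TMM normalisation factor. The 8 markers of cortical excitatory neurons summed to 7780 to 8050 CPM in KAT7 mutant and 7670 to 8290 CPM in wild type libraries, so the labelled cell type was present in all 7. Markers of other cells also differed: 4 of 6 tested microglia markers and 4 of 5 of the oligodendrocyte lineage rose, with sums of 26.8 to 35.7 and 16.8 to 32.4 CPM in KAT7 mutant libraries, against 17.2 to 20 and 10.2 to 14 CPM in wild type libraries. Their part in the results was not tested.

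Transporter genes changed in both directions in KAT7 mutant neurons. Of the 54, 35 had enough counts to be tested, and the quasi-likelihood test of edgeR called 8 higher and 10 lower in KAT7 mutant at an adjusted p under 0.05, with 17 not called. These 18 made up 51.4% of the tested members, beside 28.9% of all 13681 genes tested (13.1% higher and 15.8% lower). The largest rises were in Slc6a9, Slc7a5 and Slc7a1, and the largest falls in Slc7a14, Slc6a11, Slc38a3 and Slc1a5. The members' median log2 fold change (KAT7 mutant over wild type) was 0.02, beside 0.00 over all tested genes, and the median of its size was 0.27, beside 0.16. A change of 2-fold or more was called for 6 members, beside 4.88% of all genes, and 5 of these 6 were falls. Summed over all 54 genes, transporter transcripts stood at 2797 ± 32.6 CPM in KAT7 mutant (SD, n = 4) and 2627 ± 35.8 CPM in wild type (SD, n = 3), with no overlap between genotypes. Abundant members weigh most in this sum, such as Slc7a5, at 203 CPM in KAT7 mutant and 104 CPM in wild type. It thus does not describe the typical member, and 10 members were called lower against 8 higher. Single members had no overlap in CPM in 19 of 35 cases, 16 of them called, beside 35.3% of all tested genes. Without wild type replicate 2, 5 members were called higher, and genes called higher among all tested genes numbered 1273, against 1793 with all libraries.

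**Figure D1:**
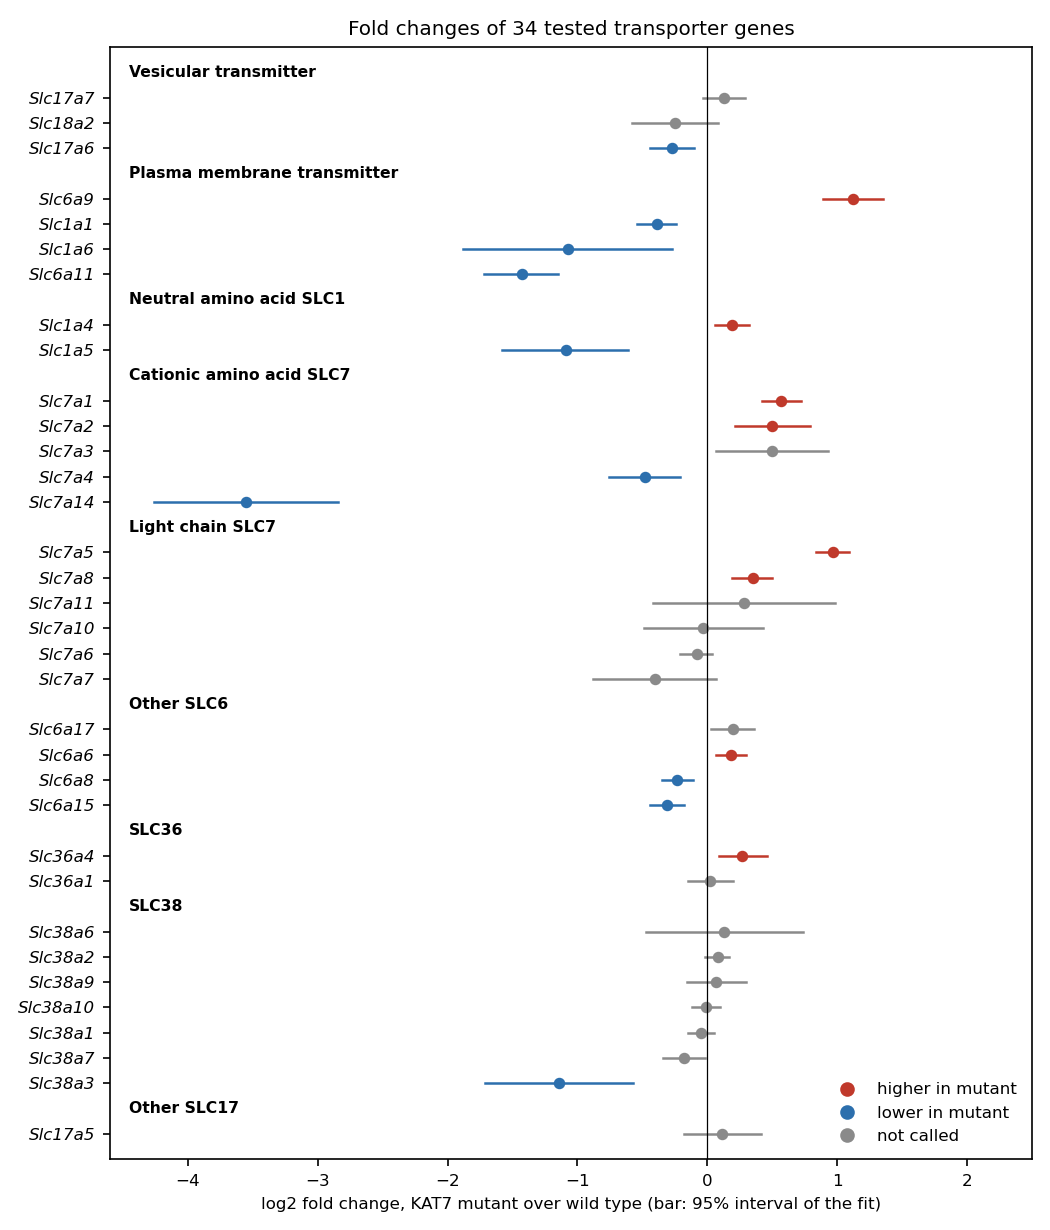
Log2 fold change of KAT7 mutant over wild type for 34 of the 35 tested transporter genes, grouped by role, with the 95% interval of the edgeR fit as a bar; red marks genes called higher, blue genes called lower and grey genes not called. Slc7a14 lies farthest to the left at -3.55 and Slc6a9 farthest to the right at 1.12, and most members lie within 0.5 of 0.

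The promoters of 6 members named in the results below are shown. They are the largest 2 rises and the largest 2 falls among members with a promoter in the RefSeq table (GRCm38.p6), and Slc1a4 and Slc7a11. The last 2 are among 4 members that hold letters of the response element bound by ATF4 with C/EBP proteins, which raises transcription when amino acids are short. The others, Slc7a7 and Slc17a5, are not shown, and neither they nor Slc7a11 were called. Each stretch runs from 100 bases before the annotated start site to 20 bases from it, 5′ to 3′ on the gene's strand, and capitals mark the motif TTGCATC or, on the other strand, GATGCAA. Where a gene had several start sites the first listed was taken.
Slc6a9 (chr4:117835158-117835277, plus strand): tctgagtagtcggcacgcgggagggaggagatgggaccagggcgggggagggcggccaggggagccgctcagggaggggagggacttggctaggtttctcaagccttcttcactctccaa
Slc7a1 (chr5:148399885-148400004, minus strand): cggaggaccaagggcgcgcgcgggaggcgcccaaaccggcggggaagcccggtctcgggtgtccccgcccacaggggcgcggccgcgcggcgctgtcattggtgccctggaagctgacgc
Slc7a14 (chr3:31310300-31310419, minus strand): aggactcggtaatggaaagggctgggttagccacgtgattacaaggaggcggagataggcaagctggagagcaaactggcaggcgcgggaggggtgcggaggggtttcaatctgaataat
Slc6a11 (chr6:114131141-114131260, plus strand): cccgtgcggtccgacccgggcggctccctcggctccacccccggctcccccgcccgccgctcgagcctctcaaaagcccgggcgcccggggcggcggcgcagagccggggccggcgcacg
Slc1a4 (chr11:20332694-20332813, minus strand): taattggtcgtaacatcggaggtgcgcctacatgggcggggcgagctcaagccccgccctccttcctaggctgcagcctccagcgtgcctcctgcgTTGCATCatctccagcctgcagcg
Slc7a11 (chr3:50443594-50443713, minus strand): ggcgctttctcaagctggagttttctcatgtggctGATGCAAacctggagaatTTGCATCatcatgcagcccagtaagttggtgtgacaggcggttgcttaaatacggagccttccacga

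The level per length was compared between genes as reads scaled by length, using the deposited gene length and the same library scaling as CPM (RPKM). The glutamine transporters SNAT2 and SNAT1 led this order. Slc38a2 had 104 ± 3.10 RPKM in KAT7 mutant (SD, n = 4) and 98.4 ± 3.88 RPKM in wild type (SD, n = 3), and Slc38a1 had 65.5 ± 1.90 RPKM in KAT7 mutant and 67.7 ± 2.85 RPKM in wild type. Slc6a6, the taurine transporter, followed at 63.3 ± 3.94 RPKM in KAT7 mutant and 55.7 ± 1.85 RPKM in wild type, and in KAT7 mutant it differed from Slc38a1 by less than its own SD. Slc7a5 came next at 57.9 ± 2.53 RPKM in KAT7 mutant and 29.6 ± 2.47 RPKM in wild type, where it did not differ beyond its spread from Slc1a4 at 29.1 ± 0.675 RPKM. The next members, from Slc6a8 to Slc1a1, lay between 16.3 and 25.6 RPKM as genotype means and their order differed between genotypes.

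**Figure D2:**
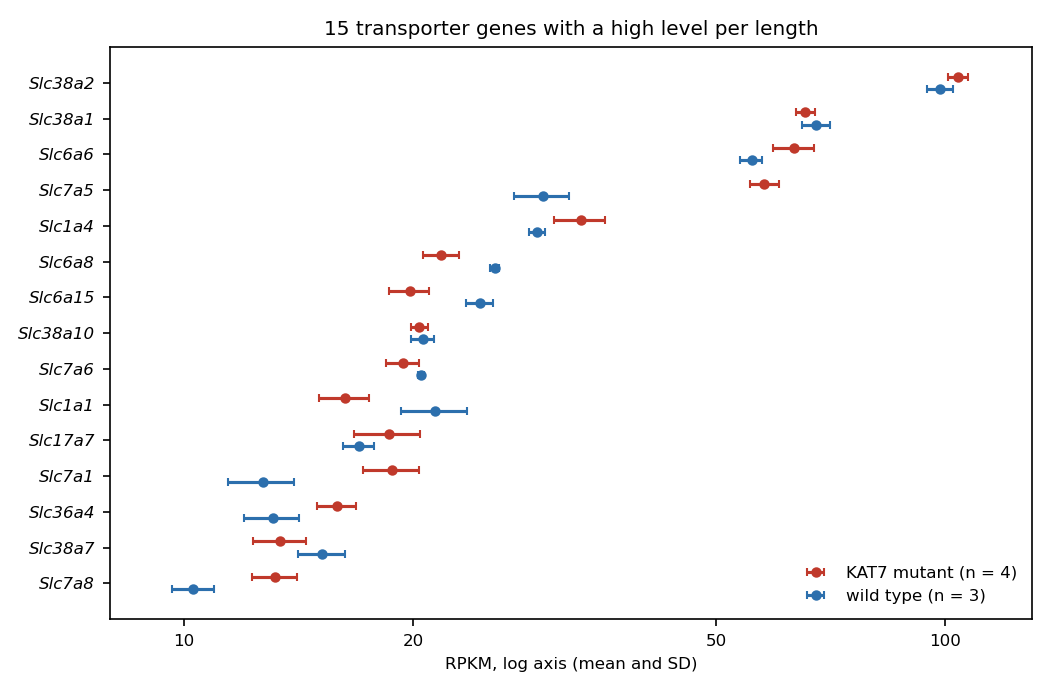
Mean level per length (RPKM, log axis) with SD for 15 of the transporter genes with the highest means over all libraries, KAT7 mutant (n = 4) above wild type (n = 3). Slc7a5 is the gene whose genotypes lie farthest apart, at 57.9 and 29.6 RPKM.

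Of the vesicular transporters, which fill synaptic vesicles with transmitter, 1 of the 3 tested was called, beside 28.9% of all tested genes. Slc17a6, which encodes the glutamate carrier VGLUT2, had 384, 354, 438 and 362 counts in KAT7 mutant replicates 1 to 4, against 476, 512 and 436 in wild type replicates 1 to 3. It fell by 0.27 ± 0.08 (SE) on the log2 scale (edgeR adjusted p = 0.0163). The genotypes overlapped, since KAT7 mutant replicate 3 at 51.7 CPM lay above wild type replicate 3 at 49.3 CPM. Dropping wild type replicate 1 (adjusted p = 0.0561) or 2 (0.101), or mutant replicate 2 (0.0584), ended the call, in a range of 0.00276 to 0.101 over all alternatives. Slc17a7, which encodes VGLUT1, had 537, 454, 427 and 434 counts in KAT7 mutant and 425, 414 and 459 in wild type libraries, and was not called (0.13 ± 0.08, 95% interval -0.03 to 0.29). The ratio of Slc17a6 to Slc17a7 per length was 0.487 to 0.698 in KAT7 mutant libraries and 0.646 to 0.842 in wild type libraries, so VGLUT1 transcripts were the more abundant in every library.

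Transcripts of the other vesicular carriers were scarce, apart from Slc18a2, which encodes the monoamine carrier VMAT2. Slc18a2 had 119, 77, 77 and 69 counts in KAT7 mutant and 109, 112 and 91 in wild type libraries and was not called (-0.25 ± 0.16, edgeR adjusted p = 0.265). Without KAT7 mutant replicate 1, the highest mutant library, it stood at -0.45 with an adjusted p of 0.0185. Markers of monoaminergic and cholinergic neurons (Th, Tph2, Fev and Chat) summed to only 0.464 to 0.818 CPM in KAT7 mutant and 0.113 to 1.07 CPM in wild type libraries. The vesicular carriers VGLUT3 (Slc17a8), VNUT (Slc17a9), VMAT1 (Slc18a1) and VAChT (Slc18a3) had at most 10 counts in any library and were not tested.

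Among carriers of inhibitory transmitters at the plasma membrane, the glycine carrier gene Slc6a9 rose and the GABA carrier gene Slc6a11 fell. Slc6a9 encodes GlyT1, the glycine carrier that also sets the glycine available to NMDA receptors. It had 400, 357, 318 and 310 counts in KAT7 mutant replicates 1 to 4, against 191, 160 and 139 in wild type replicates 1 to 3. All KAT7 mutant libraries lay above all wild type libraries, and Slc6a9 rose 2.17-fold, or 1.12 ± 0.11 on the log2 scale (SE, edgeR adjusted p = 2.03e-07). In the annotation Slc6a9 overlaps Ccdc24, a coiled-coil domain gene, and if strand was not used in counting, reads of the shared stretch cannot be told apart. Ccdc24 fell, by 0.44 ± 0.10, with 132 to 148 counts in KAT7 mutant and 183 to 207 in wild type libraries.

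Slc6a11 encodes GAT3, a GABA carrier that in the adult brain is found mainly on astrocytes. It had 55, 81, 79 and 77 counts in KAT7 mutant, against 211, 224 and 171 in wild type libraries, and the genotypes were far apart. The fall was 2.70-fold, or -1.43 ± 0.14 on the log2 scale (SE, edgeR adjusted p = 1.30e-07).

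Markers of astrocytes differed between genotypes in both directions. Of 7 markers 5 were tested, with 3 lower, 1 higher and 1 (Aldh1l1, 0.54 ± 0.31) not called in KAT7 mutant: Gfap fell by 1.70, Aldoc by 0.97 and Gja1 by 0.83 on the log2 scale, and Sparcl1, which neurons also express, rose by 1.13. The list summed to 169 to 185 CPM in KAT7 mutant and 101 to 115 CPM in wild type libraries, most of it Sparcl1, and the water channel gene Aqp4 was at 0 to 0.367 CPM in KAT7 mutant and 0.792 to 1.60 CPM in wild type. Of 6 tested radial glia markers 4 fell and 0 rose, and the list summed to 149 to 179 CPM in KAT7 mutant and 197 to 218 CPM in wild type libraries. The part of these cells in the fall of Slc6a11 was not tested. In such bulk RNA, fewer cells of a type and less RNA per cell cannot be told apart.

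Among glutamate carriers of the plasma membrane, Slc1a2 and Slc1a3 were outside the chosen genes, and both genes tested here fell. Slc1a1, which encodes the neuronal carrier EAAC1 that also takes up cysteine, had 467, 559, 503 and 518 counts in KAT7 mutant and 723, 713 and 624 in wild type libraries. It fell by 0.39 ± 0.07 with an edgeR adjusted p of 0.000456 and no overlap. Slc1a6, which encodes EAAT4, best known from Purkinje cells, had 5, 11, 7 and 4 counts in KAT7 mutant and 21, 11 and 12 in wild type libraries. Its fall of 1.07 ± 0.38 rested on few reads. It was not called by DESeq2 (adjusted p = 0.126), on dropping wild type replicate 1 (-0.71, edgeR adjusted p = 0.257) or 1 of KAT7 mutant replicates 1, 3 and 4 (adjusted p = 0.0802, 0.0627 and 0.108), in a range of 0.0188 to 0.257. The serotonin carrier gene Slc6a4 had 1 to 3 counts in KAT7 mutant and 5 to 6 in wild type libraries and was too low to be tested. Carriers for noradrenaline (Slc6a2), glycine in inhibitory terminals (Slc6a5) and betaine and GABA (Slc6a12), and the retinal glutamate carrier gene Slc1a7, had 0 to 2 counts in every library.

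**Figure D3:**
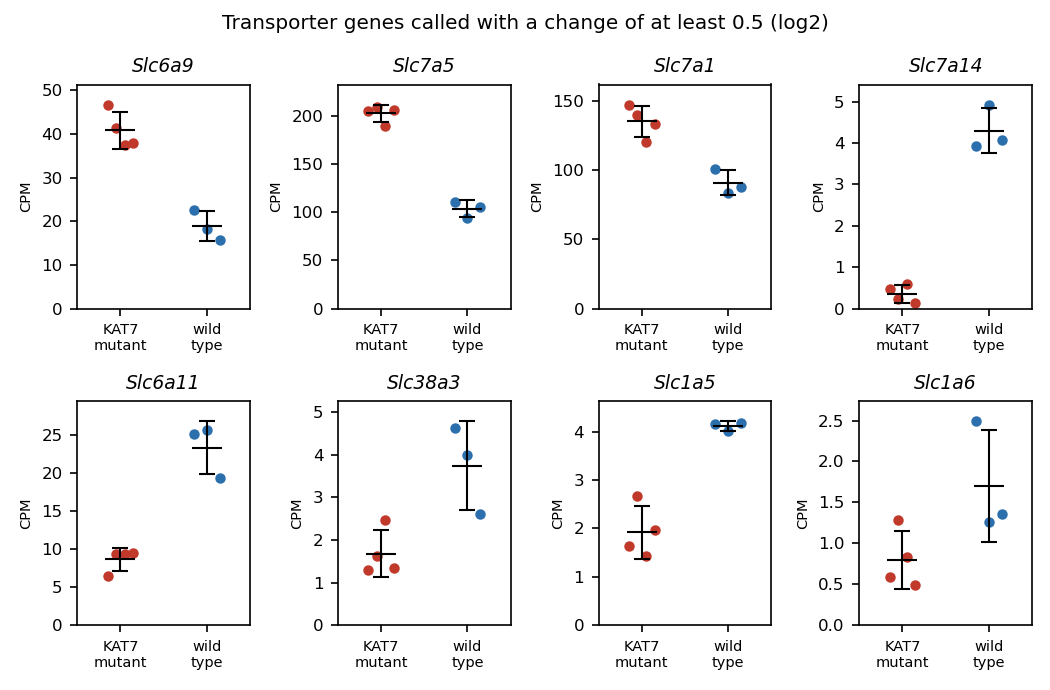
CPM in each library, KAT7 mutant on the left (red, n = 4) and wild type on the right (blue, n = 3), with mean and SD in black, for the 8 members called with a log2 change of at least 0.5. Genotypes do not overlap for 7 of the 8, beside 35.3% of all tested genes. The 8 were picked by their calls in these same libraries, so this count adds no further support. For Slc1a6 the highest KAT7 mutant library lies above the lowest wild type library.

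SLC7 transporters held the largest fall, in Slc7a14, and 2 of the 3 largest rises. In the light chain branch, Slc7a5 and Slc7a8 encode LAT1 and LAT2, exchangers of large neutral amino acids such as leucine, and both rose. Slc7a5 had 1758, 1810, 1610 and 1697 counts in KAT7 mutant replicates 1 to 4, against 936, 824 and 939 in wild type replicates 1 to 3. The lowest KAT7 mutant library, at 190 CPM, was far above the highest wild type library, at 111 CPM. The rise was 1.96-fold, or 0.97 ± 0.06 on the log2 scale (SE, edgeR adjusted p = 2.43e-10). Slc7a8 had 477, 430, 424 and 463 counts in KAT7 mutant and 377, 352 and 354 in wild type libraries, a rise of 0.35 ± 0.07. LAT1 transcripts per length were 4.21 to 4.83 times those of LAT2 in KAT7 mutant libraries and 2.69 to 3.05 times in wild type libraries.

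The heavy chain gene Slc3a2, whose product carries LAT1 and LAT2 to the membrane, rose as well. It stood at 165 ± 16.8 CPM in KAT7 mutant (SD, n = 4) and 114 ± 6.72 CPM in wild type (SD, n = 3), or 0.54 ± 0.07 on the log2 scale (edgeR adjusted p = 5.76e-06). The other heavy chain gene, Slc3a1, was not called at 0.13 ± 0.08. The other tested light chains were not called. Slc7a6, which encodes y+LAT2, had 632, 652, 570 and 590 counts in KAT7 mutant and 652, 664 and 675 in wild type libraries (-0.08 ± 0.06). Slc7a7 (y+LAT1), at -0.40, Slc7a10 (Asc-1, a carrier of glycine and D-serine), at -0.03, and the cystine-glutamate exchanger gene Slc7a11, at 0.28, had at most 47 counts in any library. Slc7a7 was called lower without KAT7 mutant replicate 1 (-0.61, edgeR adjusted p = 0.0486). Slc7a7 and Slc7a10 overlap Oxa1l and Lrp3 in the annotation, as Slc7a3 does Snx12 and Slc38a6 does Trmt5, and none of these 4 partners was called.

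The cationic branch of SLC7, named for carriers of arginine and lysine, split by gene. Slc7a1, Slc7a2 and Slc7a3 all had positive log2 changes, and only Slc7a4 and Slc7a14 had negative ones. Slc7a1, which encodes CAT1, had 1255, 1206, 1017 and 1087 counts in KAT7 mutant and 851, 729 and 778 in wild type libraries, with no overlap. It rose 1.49-fold, by 0.57 ± 0.07 on the log2 scale, with an edgeR adjusted p of 4.72e-06. Slc7a2 (CAT2) rose by 0.50 ± 0.14, with 86 to 106 counts in KAT7 mutant and 60 to 79 in wild type libraries, a call that was lost without wild type replicate 2 (0.38, edgeR adjusted p = 0.0797; 0.00485 to 0.0797 over all alternatives). Slc7a3 (CAT3) was not called at 0.50 ± 0.21, with 41 to 55 counts in KAT7 mutant and 23 to 40 in wild type libraries.

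Slc7a14 and Slc7a4, of the same branch, fell. Slc7a14 encodes a lysosomal member of the branch and had the largest change of the 35 tested members. It had 4, 2, 5 and 1 counts in KAT7 mutant replicates 1 to 4, against 33, 43 and 36 in wild type replicates 1 to 3. Its counts were thus low in wild type and near the limit of detection in KAT7 mutant. For this gene too, a low count in this table is no proof of low expression. The fall was 11.7-fold, or -3.55 ± 0.34 on the log2 scale (SE, 95% interval -4.26 to -2.84, edgeR adjusted p = 1.30e-07). Slc7a4 (CAT4) had 114, 111, 75 and 111 counts in KAT7 mutant and 153, 144 and 144 in wild type libraries, a fall of 0.48 ± 0.13 with an edgeR adjusted p of 0.00868.

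The neutral amino acid exchangers of the SLC1 family differed from each other. Slc1a5 encodes ASCT2, a glutamine carrier of dividing cells, and had 14, 23, 12 and 16 counts in KAT7 mutant, against 35, 35 and 37 in wild type libraries. The genotypes did not overlap, and the fall was 2.13-fold (-1.09 ± 0.23, edgeR adjusted p = 0.00134). Slc1a4 encodes ASCT1, a serine and alanine exchanger, and had 1219, 1157, 1058 and 980 counts in KAT7 mutant and 961, 976 and 1034 in wild type libraries. Its rise was small, 1.14-fold (0.19 ± 0.06, edgeR adjusted p = 0.0214). Dropping wild type replicate 1 (adjusted p = 0.0631) or 2 (0.0992), or mutant replicate 1 (0.0644) or 2 (0.0647), ended the call, in a range of 0.0083 to 0.0992 over all alternatives.

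The SLC38 family held the most abundant members, and 1 of its 7 tested genes was called, beside 28.9% of all tested genes. Slc38a1 and Slc38a2 encode SNAT1 and SNAT2, which feed glutamine to neurons. Slc38a1 had 4657, 4887, 4484 and 4554 counts in KAT7 mutant and 4577, 4977 and 5227 in wild type libraries (-0.05 ± 0.05, 95% interval -0.15 to 0.05). Slc38a2 had 4125, 4160, 4191 and 3766 counts in KAT7 mutant and 3692, 4144 and 4013 in wild type libraries (0.08 ± 0.05, 95% interval -0.02 to 0.17). Neither was called, and their intervals leave out changes of 0.2 on the log2 scale. Slc38a4, which lies next to them on chromosome 15, had only 1 to 4 counts in KAT7 mutant and 2 to 5 in wild type libraries.

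Slc38a3, which encodes SNAT3, a glutamine carrier of astrocytes in the adult brain, was the SLC38 member that fell. It had 11, 14, 21 and 11 counts in KAT7 mutant and 39, 35 and 23 in wild type libraries, a 2.21-fold fall (-1.14 ± 0.27, edgeR adjusted p = 0.00351). The highest KAT7 mutant library, replicate 3 with 21 counts, was close to wild type replicate 3 with 23 counts. The astrocyte markers given above, of which 3 of 5 tested fell, 1 rose and 1 was not called, differed between the same libraries, and their part in this result was not tested. Lysosomal members were not called: Slc38a7, a glutamine exporter, stood at -0.18 ± 0.08 (edgeR adjusted p = 0.0868) and Slc38a9, an arginine sensor of the mTORC1 pathway, at 0.07 ± 0.11. Without KAT7 mutant replicate 1, Slc38a7 was called lower (-0.24, edgeR adjusted p = 0.0192). Slc38a10 had 944, 935, 919 and 935 counts in KAT7 mutant and 974, 948 and 975 in wild type libraries and was not called at -0.01 ± 0.05. Slc38a6, at 0.13 ± 0.29, completed the tested genes of the family.

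The remaining tested SLC6, SLC36 and SLC17 members had log2 changes under 0.5 in size. The creatine carrier gene Slc6a8 had 788, 772, 693 and 690 counts in KAT7 mutant and 867, 897 and 889 in wild type libraries, a fall of 0.23 ± 0.06 with an edgeR adjusted p of 0.00425. Slc6a15, which encodes B0AT2, a carrier of proline and branched-chain amino acids, had 639, 651, 562 and 566 counts in KAT7 mutant and 716, 769 and 815 in wild type libraries, a fall of 0.31 ± 0.06 with an edgeR adjusted p of 0.000778. Neither gene had any overlap between genotypes. The taurine carrier gene Slc6a6 had 3039, 3435, 3386 and 3351 counts in KAT7 mutant and 2983, 3019 and 2931 in wild type libraries. It rose by 0.18 ± 0.05 (edgeR adjusted p = 0.0119), a call lost without wild type replicate 3 (0.0650). Slc36a4, a carrier of proline and tryptophan, rose by 0.27 ± 0.09, with 29.6 to 33.5 CPM in KAT7 mutant and 23.5 to 27.7 CPM in wild type libraries. That call was lost with DESeq2 (adjusted p = 0.0559) and on dropping wild type replicate 1 (0.116) or 2 (0.0789), or mutant replicate 3 (0.0745), in a range of 0.0177 to 0.116 over all alternatives.

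Slc6a17, which encodes NTT4, a neutral amino acid carrier of synaptic vesicles, was not called at 0.20 ± 0.08 (edgeR adjusted p = 0.0648), or was called at 0.22 without KAT7 mutant replicate 1 (0.0400). Slc36a1, at 0.02, and Slc17a5, the lysosomal sialic acid carrier gene, at 0.11, were not called. The lowly counted genes Slc6a7, the proline carrier gene, with 5 to 7 counts in KAT7 mutant and 1 to 3 in wild type libraries, and Slc36a2, with 2 to 5 counts in KAT7 mutant and 1 to 3 in wild type libraries, were not tested. Slc6a14, Slc6a16, Slc6a21, Slc7a9, Slc7a15, Slc17a4 and Slc38a5 had 0 to 2 counts in each library. No read was counted in any library for 12 genes of the named families: Slc6a3, Slc6a13, Slc6a18, Slc6a19, Slc7a12, Slc7a13, Slc17a1, Slc17a2, Slc17a3, Slc36a3, Slc38a8 and Slc38a11. Taken in 1 library alone, a count of 0 allows an expected count of up to 3, and a count of 0 in all 7 libraries allows less per library. A low count in this table is also no proof of low expression, since Lamtor2 and Lamtor5, which most cells use, were at or near 0 in all libraries. Phgdh was at or near 0 in all libraries as well. Lamtor2, Lamtor5 and Phgdh lie on chromosome 3, as do the lowly counted members Slc7a14 and Slc7a11. Slc6a17, also on chromosome 3, had 288 to 360 counts. Whether counts of genes on that chromosome are incomplete was not tested.

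Genes of amino acid synthesis and of the amino acid response were examined beside the transporters. Of 13 tested genes for serine, glycine and asparagine synthesis and that response, 7 rose, 1 fell and 5 were not called, at a median log2 fold change of 0.49. The serine synthesis genes Psat1 and Psph rose by 0.88 and 0.67, Shmt2, which turns serine into glycine in mitochondria, by 0.65, and the asparagine synthetase gene Asns by 0.49. Psat1 stood at 76.1 ± 5.19 CPM in KAT7 mutant (SD, n = 4) and 41.4 ± 1.24 CPM in wild type (SD, n = 3; edgeR adjusted p = 8.56e-09). Chac1 and Sesn2, induced by ATF4, rose by 1.37 and 1.21, and both were highest in KAT7 mutant replicate 1, at 23.6 CPM against 8.62 to 11.2 CPM in the other mutant libraries for Chac1. Atf4 itself rose by 0.37 on the log2 scale. The other response genes were not called, with Trib3 at 1.08 ± 0.45, Ddit3 at 0.24 ± 0.11, Ddit4 at -0.05 ± 0.07 and Atf5 at -0.15 ± 0.08, and neither was Shmt1, which makes glycine in the cytosol, at -0.25 ± 0.16. Without KAT7 mutant replicate 1, 7 genes of the list were called higher and 1 lower.

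ATF4 is known to raise transcription of 8 of the transporter genes, a list drawn up after their values were seen. Of these, Slc6a9, Slc7a5, Slc7a1 and Slc1a4 rose, Slc7a3, Slc7a11 and Slc38a2 were not called, and Slc1a5 fell. Among all tested genes 13.1% were higher and 15.8% lower, but a list made after seeing the values gives no test against these shares. The part of ATF4 in these changes was not tested. Promoter windows of 300 bases were at hand for 37 of the 54 members, and 4 of the 37 (10.8%) held the 7-letter motif on either strand, beside 2.89% of 27025 genes with a window. These were Slc7a11, Slc1a4, Slc7a7 and Slc17a5. Slc7a11 held it 2 times, in opposite orientations, starting 65 and 47 bases before the start site, and was not called at 9 to 26 counts a library. In Slc1a4 the motif began 4 bases before the start site. The windows of Slc6a9, Slc7a1, Slc7a14 and Slc6a11 held no such letters, and Slc7a5 had no window in the table.

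In the list of serine, glycine and asparagine genes the member that fell was Gldc, the glycine-cleaving decarboxylase gene. It fell by 0.61 ± 0.14, to 8.87 ± 0.652 CPM in KAT7 mutant (SD, n = 4), against 13.5 ± 2.34 CPM in wild type (SD, n = 3). Glra2, the glycine receptor subunit of immature neurons, was at 41.0 ± 2.44 CPM in KAT7 mutant and 73.6 ± 7.33 CPM in wild type, a fall of 0.84 ± 0.07 with an edgeR adjusted p of 4.35e-08. In the list of 5 glycine receptor genes it was 1 of 2 tested, and Glrb was not called at 0.27 ± 0.30, Glra1 and Glra3 had no count in any library, and Glra4 was not tested.

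Among genes that make and break down glutamate and GABA, 5 of 11 rose, 1 fell and 5 were not called, at a median log2 fold change of 0.11. Gad2 and Gad1, which make GABA, rose by 0.76 and 0.70 on the log2 scale, the vesicular GABA carrier gene Slc32a1 by 0.44, while Got1 fell by 0.23. Only 3 of the list were called higher without wild type replicate 2 or 3, and 0 lower on dropping wild type replicate 1 or mutant replicate 4. Interneuron markers, which include Gad1 and Gad2, rose in 4 and fell in 1 of 9 and summed to 335 to 459 CPM in KAT7 mutant and 267 to 423 CPM in wild type libraries, so the genotypes overlapped. Their part in these rises was not tested.

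**Figure D4:**
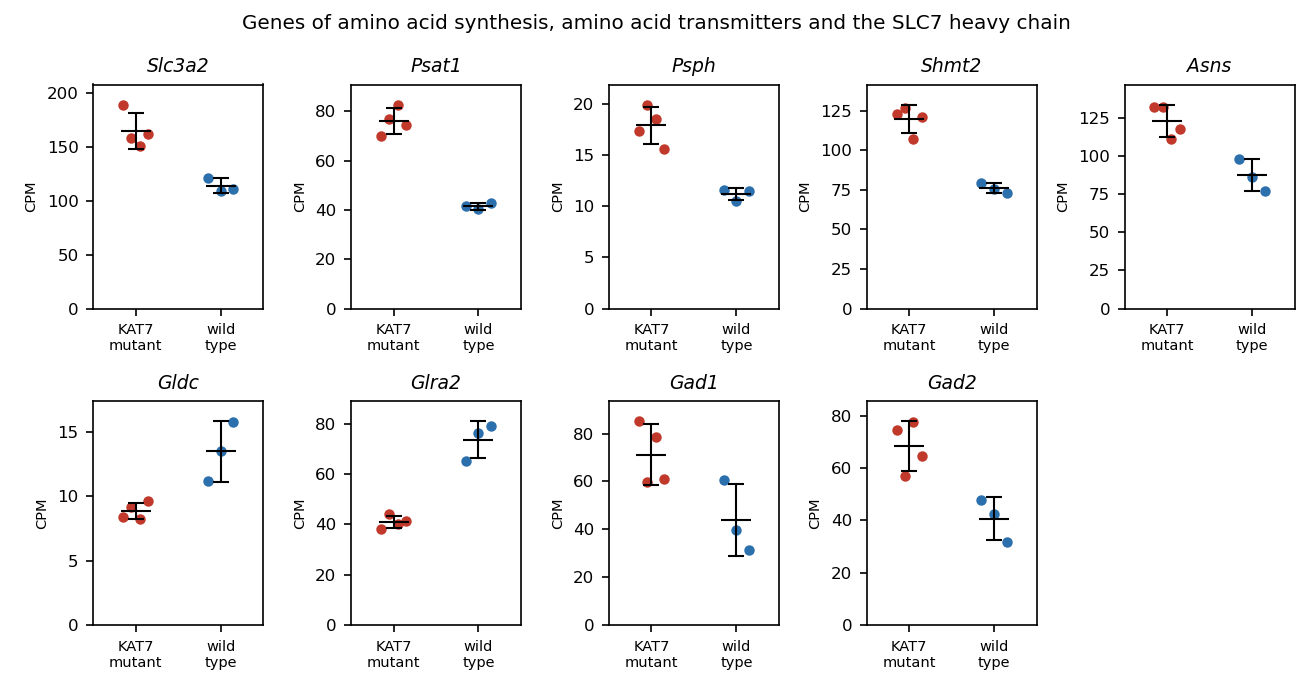
CPM in each library, KAT7 mutant on the left (red, n = 4) and wild type on the right (blue, n = 3), with mean and SD in black, for Slc3a2, Psat1, Psph, Shmt2, Asns, Gldc, Glra2, Gad1 and Gad2. Slc3a2, Psat1, Psph, Shmt2, Asns and Gad2 lie higher in KAT7 mutant without overlap, Gldc and Glra2 lie lower without overlap, and for Gad1 the lowest KAT7 mutant library lies just under the highest wild type library.

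Other pathway genes showed few rises. In the creatine list, 0 of 4 rose and 2 fell: the mitochondrial creatine kinase gene Ckmt1 fell by 1.93 ± 0.14, to 3.52 ± 0.182 CPM in KAT7 mutant against 13.4 ± 1.21 CPM in wild type, and the synthesis gene Gatm fell by 0.80 ± 0.20. Both moved the same way as the creatine carrier gene Slc6a8. Of 10 tested genes of lysosomal amino acid sensing only Mtor was called, higher by 0.25 ± 0.06. Of 3 tested genes of monoamine and acetylcholine metabolism 2 fell, Ache, which breaks down acetylcholine, by 0.99 ± 0.28, and only 1 of the list was called without wild type replicate 1.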

How the data were processed

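PolyA RNA-seq was measured in 4 KAT7 mutant and 3 wild type libraries. The authors deposited whole-number read counts per gene with an Entrez identifier and a gene length. Counting used featureCounts and the assembly was mm9, per the submitters' processing notes. Neither aligner, annotation nor strandedness is given in the sources used here. Symbols came from a RefSeq table of GRCm38.p6 (24176 of 26286 identifiers, 92%), as did gene overlaps and neighbours. Promoter sequences and coordinates are RefSeq's on GRCm38.p6, a build other than that of the files. Some genes of these families and lists, 1 of them a tested member, are counted but not reported here.

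Genes passing filterByExpr (minimum count 10) were scaled by TMM. Genotype was the only term of a two-sided quasi-likelihood test in edgeR 4.0.16 (R 4.3.3), with Benjamini-Hochberg adjustment over 13681 genes. The SE divides the log2 fold change by the root of the F statistic, and 95% intervals use the fit's degrees of freedom. Totals were 8272487 to 8813060 counts. Replicates varied beyond counting noise (chi-square per gene 2.03 to 3.62). The fit was first checked on simulated counts.

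Alternatives were RLE factors, library size only, no count filter, at least 1 CPM in 3 libraries, DESeq2 1.42.0, limma-voom (limma 3.58.1), a robust fit, the replicate number as a block, an adjusted p under 0.01 and each library left out. Counts of every library are given for called members with a log2 change of at least 0.5, the 10 highest in RPKM, and tested vesicular, GABA and glycine carriers. Up to 4 called genes per pathway list were named by size of change. Further members with per-library counts, and further list genes, were chosen after their values were seen. Members, lists and tests were chosen with earlier results of these data known, and leave-one-out counts of the lists were added after seeing the data.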

Additional observations from a re-analysis of the deposited data

Results flagged for a closer look

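In 4 of the 35 tested members a KAT7 mutant library lay far from the other 3, where chance gives about 1 in 20 groups. Slc6a11 had 6.43 CPM in KAT7 mutant replicate 1 against 9.33 to 9.41 CPM in the others, and Slc18a2 had 13.9 CPM in that library against 8.44 to 9.10 CPM. Slc7a4 had 8.86 CPM in KAT7 mutant replicate 3 against 12.9 to 13.6 CPM, and Slc36a4 had 33.5 CPM there against 29.6 to 30.0 CPM. The wild type group of 3 was not examined in this way.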

How the results depend on the processing

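Over 34 of the tested members, RLE factors, library size only, both other count filters, limma-voom and the robust fit moved no call and no direction, and DESeq2 ended 2 calls (Slc1a6, Slc36a4). At an adjusted p under 0.01, 4 members were higher and 8 lower, beside 1034 (7.56%) of all tested genes higher and 1532 (11.2%) lower. Leaving out each library in turn, members called higher ranged from 5 to 8 and lower from 8 to 12, and the members' median from -0.037 to 0.042. Among all tested genes, calls ranged from 1273 to 1776 higher and from 1826 to 2212 lower. Called genes of glutamate and GABA metabolism ranged from 3 to 5 higher and 0 to 1 lower, and those of monoamine and acetylcholine metabolism from 1 to 2 lower. Directions that turned were all of uncalled members, with log2 ranges of -0.01 to 0.06 (Slc36a1), -0.037 to 0.009 (Slc38a10), -0.13 to 0.326 (Slc38a6), -0.128 to 0.054 (Slc7a10), -0.03 to 0.483 (Slc7a11) and -0.006 to 0.216 (Slc17a5). Their cause was not tested.

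With the replicate block, 7 members were higher and 8 lower, beside 1460 higher and 1943 lower among all tested genes. Slc6a6 (edgeR adjusted p = 0.0556), Slc1a6 (0.144) and Slc17a6 (0.0654) were no longer called with it, and Slc38a6 (-0.122) and Slc7a10 (0.053) turned. Same-numbered libraries correlated at 0.0181, 0.0118 and -0.0292, and not every library correlated best with its own number, so the numbers were not treated as pairs. Members under the count filter were not tested, and an uncalled member is not shown to be unchanged. The p-values set the genotype difference against the spread between these mice as the fit estimated it, and are not themselves a measure of spread.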
